A study of Mus musculus with 12 samples.

Results

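The clustered protocadherin genes are 57 of the 21938 protein-coding genes annotated on the mouse chromosomes used here. They were taken by their symbol (Pcdha, Pcdhb or Pcdhg) on chromosome 18, and they form 3 tandem subclusters of 14, 22 and 21 genes, all on the plus strand, within 912 kb. Pcdha spans chr18:36930184-37187661, Pcdhb chr18:37264938-37524479 and Pcdhg chr18:37661793-37841873 (mm10). The readout is a single list of 170548 accessible regions from ATAC-seq, an assay in which the Tn5 transposase inserts adapters into open chromatin. Of these regions, 129 lay in the window from 50 kb before the first gene to 50 kb after the last (chr18:36880184-37891873), which is 0.0756% of the list.

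The libraries came from mouse embryonic stem (ES) cells of 2 lines. In ZHBTc4 cells a Tet-Off promoter drives Pou5f1 (encoding OCT4), and in 2TS22C cells a Tet-Off promoter drives Sox2, so that doxycycline (dox) turns off the respective gene. The 6 groups of 2 libraries were ZHBTc4 without dox (OCT4ON) and with dox (OCT4OFF) for 24 hr, 2TS22C without dox and with dox for 26 hr (SOX2ON_26h, SOX2OFF_26h), and 2TS22C without dox and with dox for 40 hr (SOX2ON_40h, SOX2OFF_40h). All 12 libraries were grown in serum with LIF, CHIR99021 and PD184352, and each line is a single engineered ES cell line. The authors merged the peaks of these experiments into one list of positions, which carries no value per library, and whether a published dataset of ZHBTc4 cells in serum and LIF, which the study also used, entered the list is not given in the sources used here. Neither the effect of losing OCT4 or SOX2 nor the depth of a library can be read from the list. A region in the list was called as a peak in at least 1 experiment, and the list does not say in which. No test between groups was made, and the shares below are descriptions. Where an interval follows a share, it is a 95% Wilson interval over genes or regions. Such an interval covers counting error only, and neighbouring copies of a tandem cluster are not independent of each other.

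Clustered protocadherins are cell adhesion proteins of the cadherin superfamily that neurons use as a surface identity code. In the Pcdha and Pcdhg subclusters, each gene has its own promoter and its own large variable first exon, which encodes the extracellular and transmembrane parts of the protein and is spliced to constant exons shared by the subcluster, which encode the common cytoplasmic part. The Pcdhb genes have no constant exons. In neurons, single promoters are chosen at random, in a process known to involve DNA methylation, the zinc finger protein CTCF, cohesin and distant enhancers, while the C-type genes (Pcdhac1, Pcdhac2, Pcdhgc3, Pcdhgc4 and Pcdhgc5) are known to be expressed more uniformly.

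The window held more accessible regions per Mb than the whole list, and their median width was larger. The whole list is not a like set, since the window is a gene cluster and 38% of its regions lay at promoters. Other gene-dense windows and promoter regions of other genes were not compared. The window held 128 regions per Mb, against 64.4 per Mb over the whole list and 62.5 per Mb on chromosome 18. Between the first and last base of each subcluster, the density was 124 per Mb in Pcdha, 139 per Mb in Pcdhb and 239 per Mb in Pcdhg. The median width was 696 bp (quartiles 410 and 894 bp, range 132 to 1541 bp), against 379 bp (quartiles 223 and 645 bp) over the whole list, and regions covered 8.59% of the window.

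Most of these regions belonged to the variable exons. There were 49 regions (38%) within 1 kb of the transcription start site (TSS) of a member, and another 46 (35.7%) inside a variable first exon farther than 1 kb from its start. The remainder were 3 between Pcdha exons, 1 between the Pcdha and Pcdhb genes, 9 between the Pcdhb and Pcdhg genes, 11 between Pcdhg exons, 2 on a constant exon, 1 in the upstream flank and 7 in the downstream flank. The 5′ ends of neighbouring genes lay 4131 bp or more apart (median 7175.5 bp), and 0 regions were within 1 kb of more than 1 member, so each promoter region could be given to a single member. Of the 49 promoter regions, 6 also lay within 1 kb of the TSS of a gene that is no member, 1 of them (at Pcdha4) that of the protein-coding gene Gm42416 and the others those of noncoding genes.

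**Figure D1:**
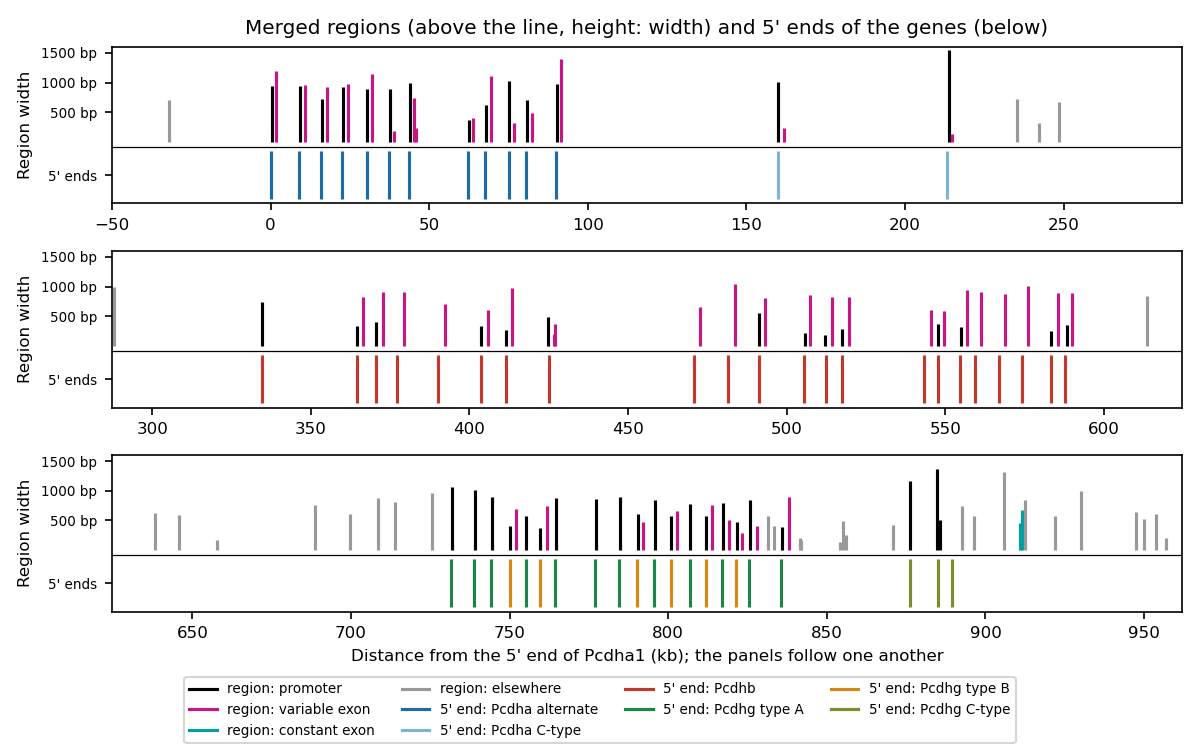
Merged accessible regions along the 3 subclusters, in kb from the 5′ end of Pcdha1, in 3 panels that follow one another. Bars above the line are regions (height: width in bp, colored by place) and bars below the line are the 5′ ends of the 57 genes (colored by type); regions sit at nearly every 5′ end of Pcdha and Pcdhg, while large parts of the constant and intergenic stretches are empty.

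Accessible regions were found at the promoters of 48 of the 57 genes, or 84.2% (Wilson interval 72.6 to 91.5%), where a promoter counts as accessible with a region within 1 kb of any annotated TSS. Over all protein-coding genes the share was 74.7%, which lies inside that interval at this limit. The subclusters differed in their counts. All 14 Pcdha genes had a promoter region (interval 78.5 to 100%), as did 20 of the 21 Pcdhg genes (95.2%, interval 77.3 to 99.2%). In Pcdhb, 14 of the 22 genes had one (63.6%, interval 43 to 80.3%). The 74.7% of all protein-coding genes lies inside this interval of Pcdhb too. The intervals of Pcdhb and Pcdhg overlap, and the difference was not tested.

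The 9 genes without a promoter region were Pcdhb4, Pcdhb5, Pcdhb9, Pcdhb10, Pcdhb15, Pcdhb18, Pcdhb19, Pcdhb20 and Pcdhgc5. In the 8 Pcdhb genes of this set, the nearest region began 1465 to 1777 bp past the TSS, inside the first exon. With a limit of 2 kb in place of 1 kb, all 22 Pcdhb genes therefore had a region, and the share over the family was 98.2% (56 of 57), against 77.6% of all protein-coding genes. With the stricter demand that a region overlap a TSS, 44 genes remained, or 77.2%, against 68.9% of all protein-coding genes. Pcdhgc5, the last gene before the Pcdhg constant exons, had no region over its first exon. Its nearest region lay from 2863 to 3611 bp past the 5′ end (chr18:37822376-37823124), beyond the end of the exon at 2622 bp.

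The promoter regions were wide in alternate Pcdha and type A Pcdhg genes and narrower in type B Pcdhg and in Pcdhb. In the 12 alternate Pcdha genes they had a median width of 909 bp (373 to 1033 bp), began at a median of -122.5 bp relative to the 5′ end and ended 552 to 942 bp after it. The 12 type A Pcdhg genes were similar, with a median of 851 bp and ends 452 to 798 bp past the 5′ end. The 6 type B Pcdhg genes, which are interspersed among the type A genes, had narrower promoter regions (median 515 bp), all of which ended 257 to 469 bp past the 5′ end. The 14 promoter regions of Pcdhb were narrow, with a median of 332 bp, and Pcdhb13 had the narrowest, of 177 bp, which ended 51 bp before the annotated 5′ end. Pcdhb1, which stands apart upstream of the other Pcdhb genes, had a wide one of 733 bp.

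The 3 widest promoter regions belonged to C-type genes. The region at Pcdhac2 (chr18:37143339-37144879) was 1541 bp wide, a width that 1.85% of all regions reach, and ran from -164 to 1376 bp relative to the 5′ end. The region at Pcdhgc4 (chr18:37814234-37815593) was 1360 bp wide and began at -845 bp, and a second region of this gene lay within 1 kb. Pcdhgc3 had a promoter region of 1166 bp and Pcdhac1 one of 1017 bp. Pcdhgc5 was the only C-type gene without one.

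**Figure D2:**
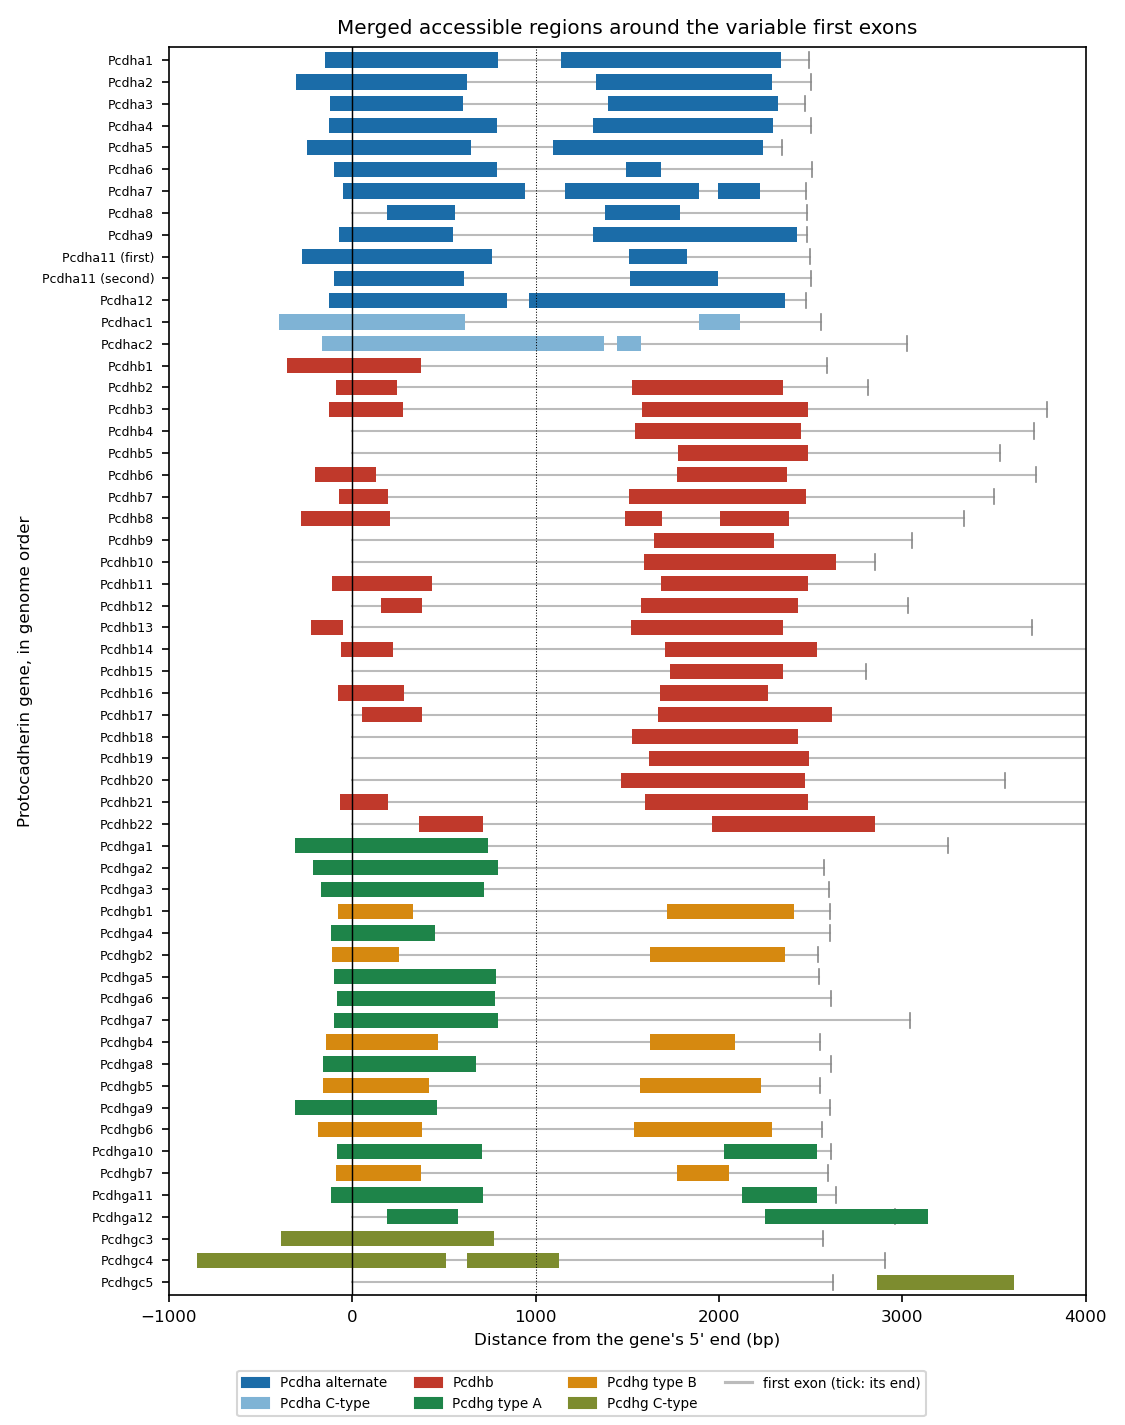
Merged regions around the 5′ end of each of the 57 genes, in genome order; the x axis is the distance from the 5′ end in bp, gray lines are first exons, and the dotted line marks 1000 bp. A region at the 5′ end is seen in 48 genes, and one farther inside the first exon, between about 1000 and 3000 bp, in all Pcdha genes, in all Pcdhb genes but Pcdhb1 (8 of which lack the region at the 5′ end), in all type B and in the last 3 type A Pcdhg genes. The longest first exons run past the right edge.

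Many genes had an accessible region farther inside the variable exon. This pattern was noticed in the list first and then counted, so the counts describe it and test nothing. A region centered in the first exon more than 1 kb from its start was present in 44 of the 57 genes, or 77.2% (interval 64.8 to 86.2%). First exons this long are rare, and among the 623 protein-coding genes with a first exon of at least 2000 bp, members included, the share was 27.9%. It was 23.0% in the 566 genes of that kind that are no members. In 4 of the 44 genes, exon regions lay within 1 kb of another gene's TSS, which was that of the protein-coding genes Gm37013 in Pcdha6 and Gm37388 in Pcdha7, and of the noncoding genes Gm37446 in Pcdhb12 and Gm26672 in Pcdhga12. The other 40 genes had no such TSS there. Of the 57 genes, 36 had both a promoter and an exon region, 12 had the promoter region only, 8 had the exon region only, and Pcdhgc5 had neither.

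The exon region followed the type of gene. It was present in all 12 alternate Pcdha genes, in Pcdhac1 and Pcdhac2, in 21 of 22 Pcdhb genes and in all 6 type B Pcdhg genes. It was present in 3 of the 12 type A Pcdhg genes, which were Pcdhga10, Pcdhga11 and Pcdhga12, the 3 type A genes nearest the C-type genes, and in 0 of the 3 C-type Pcdhg genes. Pcdhb1 was the only Pcdhb gene without it. All 8 genes with an exon region only were Pcdhb genes. Some calls in the C-type genes depend on the cutoff. The exon region of Pcdhac2 lay 66 bp past its promoter region and was no longer counted when regions less than 100 bp apart were joined. Pcdhgc4 had a second region from 628 to 1130 bp past the 5′ end, which crosses 1 kb but is centered before it.

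The exon regions sat at a similar place within each type. Their centers had a median distance from the 5′ end of 1704.75 bp in the alternate Pcdha genes (1525.5 to 1869.5 bp), 2041.5 bp in Pcdhb and 1913.5 bp in type B Pcdhg. In Pcdhb the exon region began 1465 to 2008 bp and ended 2267 to 2850 bp past the 5′ end, although the first exons of these genes differ in length from 2801 to 8695 bp. The end at 2850 bp was that of Pcdhb22. The 5′ end of this gene lies 365 bp before its promoter region, which another annotated TSS of the gene overlaps. In the 13 Pcdhb genes that had both, 1191 to 1798 bp lay between the promoter region and the exon region, the largest distance being that of Pcdhb8, which was taken to the wider of its 2 exon regions. In the alternate Pcdha genes the same stretch was 118 to 900 bp long.

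In Pcdhb the exon region was also the larger one. Its median width was 859 bp, and it was wider than the promoter region in 12 of the 13 genes that had both, the exception being Pcdhb8, whose exon held 2 narrower regions. In the alternate Pcdha genes the exon region was the wider one in 8 of 12, and its width ranged from 188 bp in Pcdha6 to 1394 bp in Pcdha12, where promoter and exon regions together covered 90.6% of the first exon. In Pcdhac1 and Pcdhac2 the exon regions were small, of 225 and 133 bp.

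**Figure D3:**
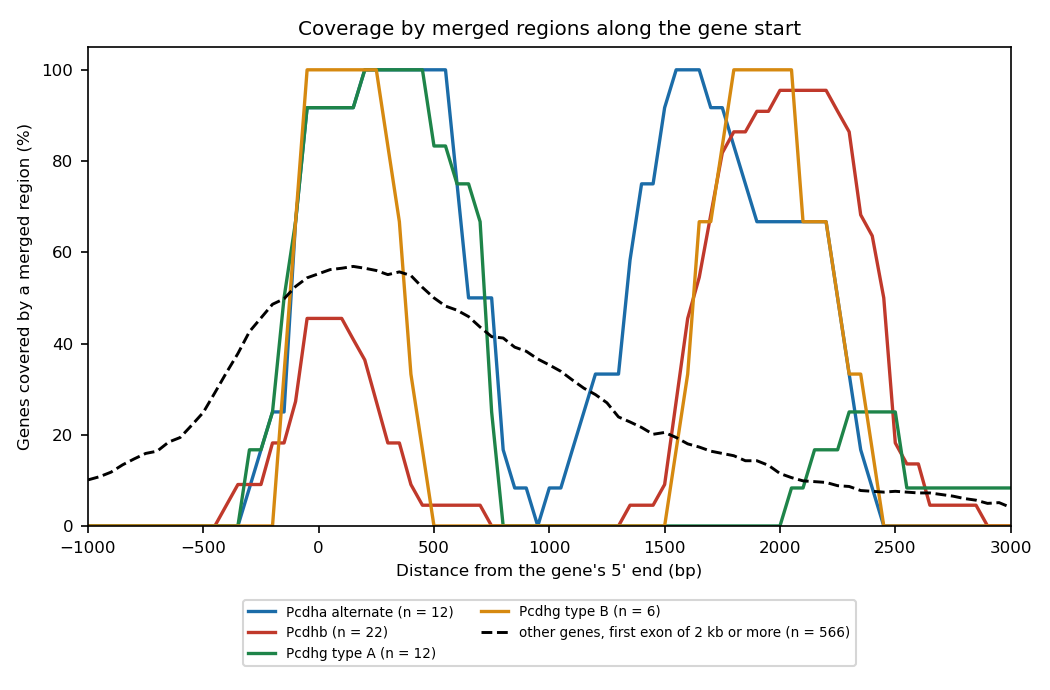
Share of genes covered by a merged region (y axis, %) at each distance from the 5′ end (x axis, bp), for the 4 larger types and for 566 other genes with a first exon of at least 2 kb (dashed). The clustered genes show separate promoter and exon maxima with little or no coverage at 1000 bp, where 35.3% of the other genes are covered.

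Along the gene start, coverage had a pair of maxima in the types with an exon region. All 12 alternate Pcdha genes were covered from 200 to 550 bp past the 5′ end and again from 1550 to 1650 bp, whereas 8.33% of them were covered at 1000 bp. In Pcdhb, 45.5% of the genes were covered at the 5′ end and 95.5% from 2000 to 2200 bp, with 0 covered at 1000 bp. The 566 other genes with a long first exon showed a single broad maximum of 56.9% at 150 bp, 35.3% at 1000 bp, and 11.5% at 2000 bp.

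The related protocadherins outside the clusters offer a comparison, since they too encode their extracellular part in a large exon. All 12 non-clustered protocadherins listed had a promoter region (interval 75.8 to 100%), against 74.7% of all protein-coding genes. Among the 8 with a first exon of at least 2000 bp, 5 had an exon region (Pcdh7, Pcdh8, Pcdh10, Pcdh17 and Pcdh18), or 62.5%. The clustered genes had one in 44 of 57, and the 566 genes with such an exon that are no members in 23.0%. The differences were not tested, and 8 genes give them little precision.

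Of the 3 Pcdha and 3 Pcdhg constant exons, 1 was overlapped by a region. The first and second of each subcluster are short, of 59 and 89 bp, and the last are 2712 bp (Pcdha) and 1971 bp (Pcdhg) long. No share over all exons was computed, so the count cannot be read as a trait of the constant exons. The last Pcdhg constant exon, which also holds the end of all 21 Pcdhg genes (chr18:37839903-37841873), was overlapped by 2 regions of 461 and 667 bp, which covered 903 of its 1971 bp. The first and second Pcdhg constant exons lay 1236 and 2165 bp from the nearest region, and the region between the second and the third (chr18:37835518-37836840) was 1323 bp wide, the fourth widest of the window. The Pcdha constant exons lay 5934 to 9074 bp from any region. The long intron between the second and the last Pcdha constant exon held 3 regions, at chr18:37165287-37166009, chr18:37172360-37172681 and chr18:37178344-37179011, the last 2 of which lie within 1 kb of the starts of the noncoding genes Gm38097 and Gm10544.

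Beyond the exons, accessible regions were unevenly spread. The longest stretches without a region were 67.1 kb between Pcdha12 and Pcdhac1 and 51.2 kb between Pcdhac1 and Pcdhac2. Between the last Pcdha constant exon and Pcdhb1 lay a single isolated region (chr18:37217501-37218489, 989 bp), with 38.5 kb empty before it and 46.1 kb empty after it. A stretch of 45 kb without a region in Pcdhb contained the 5′ end of Pcdhb9. Among the 9 regions between Pcdhb and Pcdhg, 1 lay at the TSS of Slc25a2, which encodes a mitochondrial carrier, and 1 at that of Taf7, which encodes a subunit of the general transcription factor TFIID. The pseudogene Pcdhgb8, which is not counted as a member, had a region at its start (chr18:37761357-37761932) and another of 396 bp about 2 kb farther on, as the type B genes do.

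The CpG content of the promoters ran with the presence of a region. CpG observed/expected is the number of CG dinucleotides relative to that given by the C and G content, which is low where cytosines have been methylated over evolution. In the 500 bp to either side of the 5′ end, its median was 0.588 (0.212 to 0.864) in the 48 members with a promoter region and 0.308 (0.158 to 0.434) in the 9 without. Over all protein-coding genes the medians were 0.676 with and 0.15 without a region. Since 8 of the 9 genes are Pcdhb genes, the comparison within that subcluster is closer, at 0.417 (0.212 to 0.519) in 14 genes with a region and 0.309 (0.158 to 0.434) in 8 genes without, and the ranges overlap widely. Pcdhgc5 had 0.233, against 0.797 in Pcdhgc3 and 0.67 in Pcdhgc4. By type, the medians were 0.684 in alternate Pcdha, 0.588 in type A and 0.65 in type B Pcdhg, and 0.378 in Pcdhb.

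**Figure D4:**
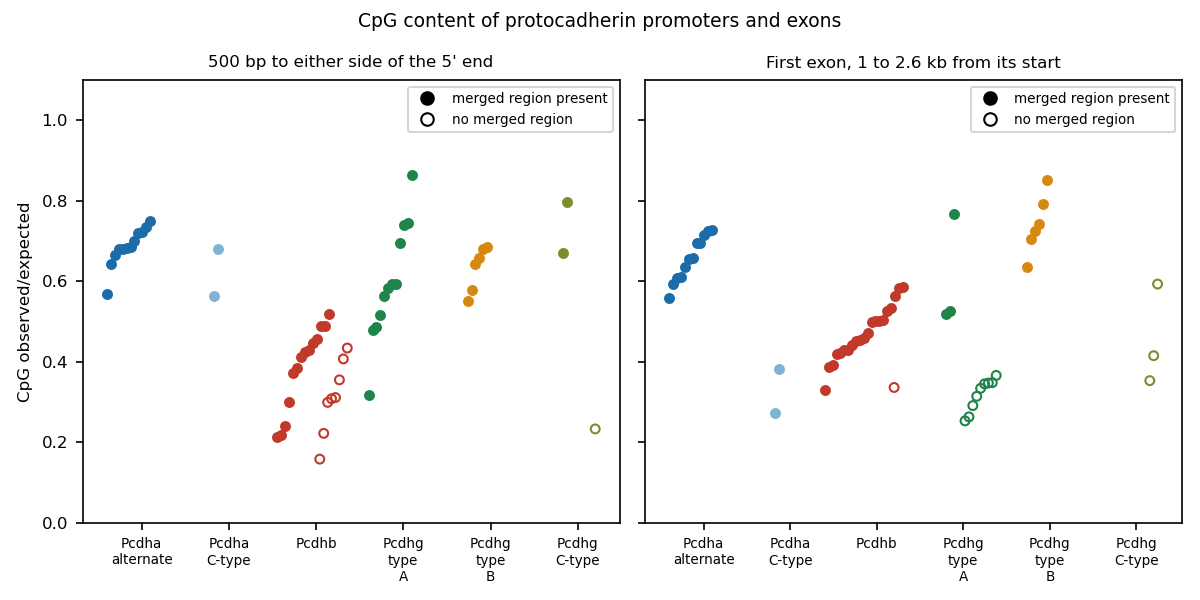
CpG observed/expected (y axis) of the promoter (left) and of the first exon from 1000 to 2600 bp (right), 1 point per gene by type; filled points have a merged region at that place and open points do not. Type A Pcdhg exons with a region (0.518 to 0.768) lie above those without (0.253 to 0.366), while Pcdhb promoters with and without a region overlap.

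In the exons the same measure was taken from 1000 to 2600 bp past the start, or to the end of a shorter exon. It was high in alternate Pcdha (median 0.657) and in type B Pcdhg (0.734), intermediate in Pcdhb (0.457) and low in type A Pcdhg (0.346). Within type A, the 3 genes with an exon region had 0.518 in Pcdhga10, 0.526 in Pcdhga11 and 0.768 in Pcdhga12, and the 9 without had 0.253 to 0.366, so these groups did not overlap. Pcdhb1, without an exon region, had 0.336, near the lower end of the Pcdhb genes (0.329 to 0.586). Exon regions were also found at low CpG content, at 0.273 in Pcdhac1 and at 0.381 in Pcdhac2, whose exon region nearly adjoins its promoter region. In the other genes with a long first exon, the medians were 0.461 in 130 genes with an exon region and 0.317 in 436 without.

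The copies of the cluster share sequence, which bears on where reads can be placed. The share of 31-base words that occur more than once in the genome was taken as a measure. The reads were paired and longer than these words, so a repeated word need not leave a read without a single place. At the promoters its median was 22.4% in alternate Pcdha, 20% in type B Pcdhg and 0% in Pcdhb, and over all protein-coding genes it was 0%. In the narrower window of 250 bp to either side it was 4.36% in alternate Pcdha and 12.6% in type B Pcdhg. The 8 Pcdhb promoters without a region had a median of 0.515% (0 to 13.9%), and the 14 with one had 0% (0 to 16.1%). In the exon windows the median was 20.3% in alternate Pcdha, 19.5% in Pcdhb, 25.8% in type B and 2.26% in type A Pcdhg. Genes with an exon region had a median of 19.5% and genes without one 1.72%, so the shared sequence moved with the exon regions, and its part in them was not tested. Pcdhga10, Pcdhga11 and Pcdhga12 had exon regions with 0.7%, 1.08% and 0.191% repeated words, and Pcdhac1 and Pcdhac2 with 0%.

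CTCF is known to bind in clustered protocadherin promoters and exons. A consensus of 12 letters for the core of its motif was searched on both strands, with at most 1 mismatch. It was found in 33 of the 129 regions of the window, or 25.6% (interval 18.8 to 33.7%). The share was 16.3% over the whole list, but 21.4% in the 57164 regions of the list whose width lay between the quartiles of the window, which lies inside the interval of the window. Without a mismatch the share was 14% in the window (interval 9.01 to 21%), above the 3.67% of the whole list and the 5.56% of the regions of similar width. A match gives the presence of the letters only, and no binding was measured here.

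Within the window the matches were gathered in particular places. In alternate Pcdha, 7 of 12 promoter regions held a match (58.3%, interval 32 to 80.7%), and 5 of the matches had no mismatch. All 7 were on the strand of the gene and 461 to 586 bp past the 5′ end, inside the first exon. Within 500 bp of the 5′ end, only 1 of the 12 genes had a match. The share over the whole list was 16.3%, but its median width is 379 bp, against 909 bp in these promoter regions. No share was computed for promoter regions of other genes. In Pcdhb, 0 of 14 promoter regions but 15 of 21 exon regions held one (71.4%, interval 50 to 86.2%), all 15 on the strand opposite to the gene, and 11 of them had no mismatch. These Pcdhb matches lay 2276 to 2815 bp past the 5′ end (the farthest in Pcdhb22) and 161 to 431 bp from the center of their region, that is toward its far end. They comprised 6 different sequences of 12 letters, so many of the copies share them. In the first exons themselves from 1000 to 2600 bp, 17 of the 22 Pcdhb genes had a match on the opposite strand (77.3%), against 9.72% of the 566 other genes with a long first exon. With either strand counted, the shares were 77.3% in Pcdhb and 15.4% in the other genes. Among the 130 other genes with an exon region, 17.7% had a match on either strand. Of the 12 exon regions of alternate Pcdha, 2 held a match, 1 on each strand. The 12 promoter regions of type A Pcdhg held 0 matches, those of type B held 1 on the opposite strand, and the exon regions of both types held 0. A consensus search finds only part of the sites, so 0 matches do not show that CTCF sites are absent.

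The composite OCT4::SOX2 motif, to which both factors bind as a dimer, was searched in the same way in the central 200 bp of each region, with at most 2 mismatches. It was found in 1 of the 129 regions (0.775%, interval 0.137 to 4.26%), the promoter region of Pcdhb8 (chr18:37354842-37355330), and in 0.795% of the whole list. A consensus search of this kind finds only part of the sites that a weight matrix would, and with a single match the shares say little about the window.

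Lists of related genes place these counts, beside the 74.7% of all protein-coding genes with a promoter region. The 21 genes of the machinery known to act on the clusters, such as Ctcf, Rad21, Smchd1 and Dnmt3b, all had one (interval 84.5 to 100%). So did the 12 genes of known partners of the proteins (interval 75.8 to 100%), such as Fyn and Ptk2, which encode kinases. Both lists are short, and their shares were not tested against that of all genes. Of other tandem families, 37 of 39 Hox genes (94.9%, all but Hoxa3 and Hoxa6) and 61 of 66 replication-dependent histone genes (92.4%) had a promoter region. Olfactory receptor genes, another family in which single members are chosen in neurons, were at the other end with 115 of 1093 (10.5%, interval 8.84 to 12.5%).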

How the data were processed

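ATAC-seq was performed on 12 libraries of both cell lines. The authors used STAR 2.6.1c for alignment to mm10, Picard against duplicates, MACS 2.1.1.20160309 for peaks, and BEDTools to join the peaks of the experiments into a single list. The paper also reports that peaks above a width limit, in blacklisted places or overlapping peaks of input samples were taken out. Whether the deposited list was filtered in this way was not examined. How reads with several matches were treated is not given in the sources used here. The deposited list gives 170548 pairs of positions in bp, with no score and no value per library. Depth is therefore unknown, and no replicate could be compared.

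Genes and TSSs came from GENCODE M21, bases from GRCm38.p6, and coordinates are counted from 1. In this annotation 2 member genes share the symbol Pcdha11; both were kept. Distances, CpG content, repeated words of 31 bases and consensus matches were computed with Python 3.11.15, NumPy 2.4.6 and pandas 2.3.3, and the code was tested on simulated data. A region in a first exon was counted if centered over 1 kb past the exon start. The members, gene lists and measures were chosen with earlier results of these data known. All members could be named. The alternatives were other limits, TSS sets, widths and mismatches. Sequences of the window are not printed here.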

Additional observations from a re-analysis of the deposited data

How the results depend on the processing

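Of 17 alternatives for the main counts and values, 13 stayed close to the value given and 4 did not. The share of genes with a promoter region was 98.2% with a limit of 2 kb, against 77.6% of all protein-coding genes, because the Pcdhb exon regions then count. It was 77.2 to 84.2% with TSS overlap, the gene's 5′ end, coding transcripts or regions of at least 200 bp. The share of regions with a CTCF core match was 14% with no mismatch and 59.7% with at most 2, against 5.56% and 59.2% of list regions of similar width. The median share of repeated words at the promoters was 1.85% in windows of 500 bp to either side and 0% with 250 bp. The window held 121 to 127 regions without flanks, above 200 bp or with close regions joined, and 1 constant exon was overlapped throughout. Exon regions, with alternatives chosen after seeing the data, were found in 73.7 to 78.9% of genes. No paired analysis was possible because positions in the file used here are pooled over libraries, and reads per library were not analysed here. Leaving out a library and separating the 6 groups were not possible for the same reason. The list does not give depth, so a missing region may be a weak one, or one taken out by the filters on peaks. TSSs are as annotated.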
